A study of Saccharomyces cerevisiae with 32 samples.

Results

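Subtelomeric intergenic regions of budding yeast (Saccharomyces cerevisiae) were examined for changes in the binding of 5 general transcription regulators during heat shock. A region counted as subtelomeric when the gene that names it on the array starts within 30 kb of the start of the first gene or the end of the last gene of its nuclear chromosome, by the RefSeq gene table of assembly R64. The rule found 403 of 7047 regions, named by 315 genes and lying at all 32 ends of the 16 chromosomes. The comparison set was 5274 internal regions, whose named gene lies farther in. Another 1351 regions carried no gene name, 3 were named for a gene that the table lacks, and 16 were named for mitochondrial genes. Of these 16 regions, 10 meet the distance rule literally and were left out because the mitochondrial genome has no telomeres.

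The ends of yeast chromosomes carry repeated sequence elements and multigene families, and the chromatin there is known to repress transcription of nearby genes. Silencing rests on the Sir proteins and on Rap1, Rif and Ku proteins at the telomere, and a wider zone is kept low by histone deacetylases. Many subtelomeric genes serve stress, sugar, iron or vitamin use and are nearly silent in rich medium. Of the regulators measured here, TBP binds promoters and nucleates the transcription machinery, TAF1 is a subunit of TFIID, and Spt3 is a subunit of SAGA that delivers TBP. Mot1 uses ATP to strip TBP off DNA. Bdf1 is a bromodomain protein that binds acetylated histones, associates with TFIID, and is known as a barrier to the spread of Sir proteins.

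Cultures in YPD at 25 °C were either brought to 37 °C for 15 min or mock treated at 25 °C, and cells for chromatin immunoprecipitation (ChIP) were then fixed with 1% formaldehyde for 2 h. Strains carried HA-TBP, HA-TAF1, HA-Spt3, HA-Mot1 or HA-Bdf1, and a strain labelled Null, with no HA-tagged factor named, gave the background. Each of these 6 groups had 4 arrays, each carrying heat shocked DNA in one colour and mock DNA in the other. A group of 4 input arrays compared DNA of the HA-TAF1 strain with DNA of the HA-Spt3 strain before immunoprecipitation, and their treatment is not labelled. RNA of the Null strain (BY4741) was measured on 4 further arrays, of which 2 set heat shock against mock and 2 set mock against mock. The labels do not say whether arrays of a group came from separate cultures, so p-values measure the spread between arrays, which may be technical.

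Each of the 28 ChIP arrays held 6644 to 6953 values, 393 to 403 of them in subtelomeric regions. Only log2 ratios were deposited, so signal over background is unknown and the number of arrays sets the precision. Values below are log2 ratios of heat over mock, relative to the median of all regions on the same array. A ratio does not tell a change in every cell from a change in a share of cells. The sources do not say which channel is the numerator. The direction used for the ChIP arrays, and the opposite one used for RNA, are likely ones, taken from the known rise of chaperone genes. Under the other ChIP reading every ChIP sign below reverses. A call means an adjusted p under 0.05 in a limma fit of all regions, in which 391 subtelomeric and 5115 internal regions were among the 6392 tested. Null arrays A and B were noisier, with median absolute deviations of 0.335 and 0.254 against 0.106 and 0.0939 for arrays C and D.

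After heat shock the TAF1, Spt3 and Bdf1 ratios were lower at subtelomeric than at internal regions on every array, and those of Mot1 had no common direction. The median TAF1 effect was -0.13 over subtelomeric and 0.00 over internal regions, a difference of -0.13 in the fit. On the single TAF1 arrays this difference was -0.14, -0.05, -0.13 and -0.15, with a mean of -0.12 ± 0.04 (SD, n = 4). Spt3 was lower by a fitted -0.13 and by -0.25, -0.13, -0.08 and -0.08 on its arrays, of which array B stood lowest. Bdf1 was lower by a fitted -0.10, with -0.11, -0.05, -0.11 and -0.13 on the arrays. None of the arrays of these 3 groups reached 0. TBP was shifted by a fitted -0.05, with -0.10, -0.03, -0.05 and -0.07 on its arrays.

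The Mot1 arrays disagreed, with 0.099 and 0.075 on arrays A and B and -0.142 and -0.068 on arrays C and D. The Null arrays were at or below 0 as well, at 0.00, -0.02, -0.04 and -0.05, so all 4 TAF1 and all 4 Bdf1 arrays lay at or below the lowest Null array. The input arrays fell on either side of 0, between -0.02 and 0.06. These shifts are given with no test. With Null taken off region by region, the median TAF1 effect was -0.08 over subtelomeric and 0.03 over internal regions, and the Bdf1 ones were -0.05 and 0.02.

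**Figure D1:**
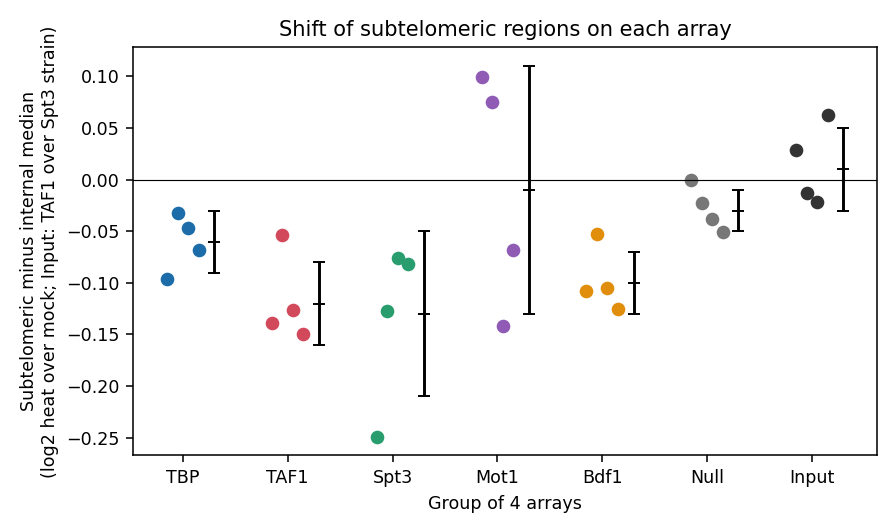
Median of subtelomeric minus median of internal regions on each of the 4 arrays of a group (points, replicates in order from left to right; y axis in log2 units) with mean and SD (bar) beside them. All TBP, TAF1, Spt3 and Bdf1 arrays lie below 0, between -0.03 and -0.25, while the Mot1 and input arrays lie on both sides of 0.

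More TAF1, Spt3 and Bdf1 calls were lower than higher with all arrays in the fit. Bdf1 was called lower at 56 of the 391 subtelomeric regions, 14.3%, beside 7.81% of all regions tested and 7.53% of internal ones. Bdf1 was called higher at 27, which is 6.91% beside 8.42% of all regions. TAF1 was called lower at 49, or 12.5% beside 8.67% of all regions, and higher at 32, or 8.18% beside 12.2%. Spt3 was called lower at 20 regions, 5.12% beside 1.77%, and higher at 4, 1.02% beside 3.88%. For TBP the shares were near the background, with 16 lower (4.09% beside 4.01%) and 28 higher (7.16% beside 8.35%). For Mot1, 20 were lower (5.12% beside 4.18%) and 32 higher (8.18% beside 8.57%). These counts moved with single arrays. Bdf1 calls in both directions, 21.2% of the members, came to 9.97% without Bdf1 array A, 7.93% without array C and 11.0% without array D. TAF1 calls, 20.7%, came to 7.42% without TAF1 array A, with 16 higher and 13 lower, so the excess of lower calls was lost. TBP calls, 11.3%, came to 6.39%, 7.42% and 5.88% without TBP array A, B or D, and Mot1 calls, 13.3%, to 8.18%, 4.35% and 3.84% without Mot1 array B, C or D. The Spt3 calls, 6.14% of the members in both directions, came to 0.512% without Spt3 array B (2 higher and 0 lower), 2.05% without array C and 1.79% without array E.

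Neither control gave a call at a chromosome end. Null was called at 0 of the 391 regions, beside 0.0313% of all regions. An unadjusted p under 0.05 was reached in Null at 74 regions, 18.9% beside 19.9% of all regions. Both shares are well above the 0.05 expected without any effect, at chromosome ends and elsewhere alike. The input comparison was called at 0, beside 0.0156% of all regions, where 3 regions passed an unadjusted 0.05. Null calls were not stable, since 7.67% of the members were called without Null array C and 4.60% without Null array D. The 3 members with the smallest unadjusted p in Null were the region named for the noncoding RNA gene YNCB0001W at 0.57 ± 0.14 (limma adjusted p = 0.0884), one of MCH2 at -0.67 ± 0.17 and one of SIR1 at -0.33 ± 0.08.

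Subtelomeric regions called in some factor were mostly called in 1 alone. Of the 391, 216 were called in none of the 5 factors, 106 in 1, 39 in 2, 21 in 3, 8 in 4 and 1 in all 5. No share over all regions is given beside these counts, so they are not read as a trait of chromosome ends. The gap to internal regions differed between kinds of region. Of the 403 regions, placed to the right of the gene that names them, 204 bordered 1 promoter, 103 bordered 2 and 90 lay between convergent genes with no promoter. The median TAF1 effect was -0.14, -0.10 and -0.14 in these kinds, and the median Spt3 effect -0.11, -0.09 and -0.15. Among internal regions the TAF1 medians were 0.04, 0.08 and -0.11, so that there the convergent kind lay low and the promoter kinds did not. The convergent kind therefore had little gap for TAF1 (-0.14 against -0.11) or Bdf1 (-0.13 against -0.10), more for Spt3 (-0.15 against -0.08), and none in that direction for TBP (-0.08 against -0.12).

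The shift deepened toward the chromosome end for TAF1 and Bdf1, and by less for TBP. Within 5 kb of the end gene, over 52 regions, the median Bdf1 effect was -0.27. It was -0.12 at 5 to 10 kb (66 regions), -0.09 at 10 to 15 kb (64), -0.04 at 15 to 20 kb (63) and -0.06 at 20 to 30 kb. The TAF1 medians over the same bins were -0.19, -0.20, -0.16, -0.10 and -0.05, and the TBP medians -0.09, -0.11, -0.09, -0.04 and -0.03. Spt3 changed less with distance, between -0.15 and -0.10. These bins include the repeated PAU, COS and Y' families described below. Without these families the median over all subtelomeric regions was -0.07 for Bdf1 and -0.10 for TAF1, against -0.10 and -0.13 with them. The trend with distance was not taken without them.

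Beyond the limit the medians neared 0. At 30 to 45 kb, over 208 regions, Bdf1 was at -0.04, TAF1 at -0.02 and Spt3 at -0.02. Within 5 kb Mot1 (0.06) and Null (0.07) were above 0, and the arrays spread widely there. The Bdf1 array medians ran from -0.50 to -0.09 in that bin, the Mot1 ones from -0.16 to 0.39 and the Null ones from -0.05 to 0.25. Bdf1 was thus below 0 on every array there, and its range did not meet that of Null. The Bdf1 range did overlap that of the input arrays, -0.20 to 0.27, although these hold no immunoprecipitated DNA.

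**Figure D2:**
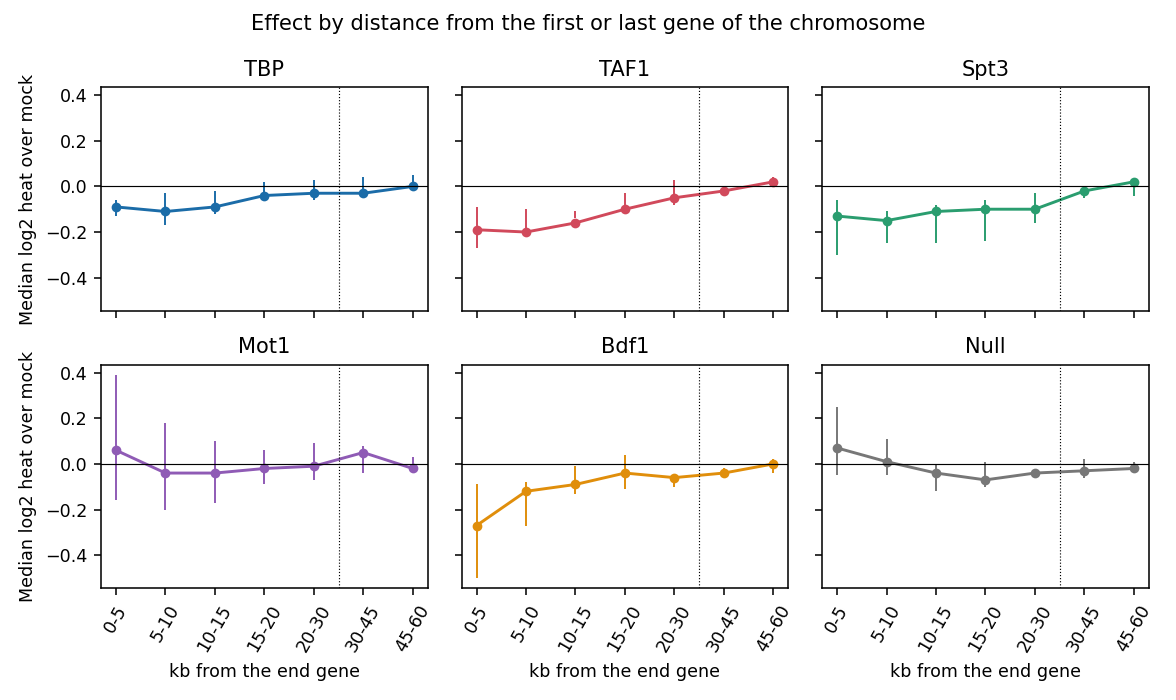
Median effect (y axis, log2 heat over mock) of regions by distance of their named gene from the end gene of the chromosome (x axis, kb), with the lowest and highest of the 4 array medians as vertical lines. The dotted line marks 30 kb, and Bdf1 rises from -0.27 within 5 kb to 0.00 at 45 to 60 kb.

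Most chromosome ends shared the shift. Medians were taken at each of the 32 ends, over 1 to 18 regions. The TAF1 median was below 0 at 29 ends, with a range from -0.28 to 0.21, and the Spt3 median at 28 (-0.30 to 0.07). For Bdf1 26 ends were below 0 and 4 above (-0.30 to 0.18), and for TBP 24 and 7. Mot1 was below 0 at 18 ends and above at 14, and Null at 20 and 12.

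The region ahead of PRE4, a subunit gene of the 20S proteasome core, was the single member called higher for all 5 factors. Its TBP values were 0.78, 0.62, 0.81 and 0.71 on the 4 arrays (0.73 ± 0.11 (SE), limma adjusted p = 0.00014). TAF1 gave 1.08, 0.78, 0.63 and 0.59 (0.77 ± 0.11), and Bdf1 0.55, 0.35, 0.70 and 0.59 (0.55 ± 0.11). On the Null arrays the region stood at 0.15, -0.18, -0.08 and 0.26, so that every TBP, TAF1 and Bdf1 array lay above every Null array. Spt3 (0.45 ± 0.11) and Mot1 (0.36 ± 0.11) overlapped Null, and the Spt3 call was lost without array B (or array E). PRE4 RNA rose by 0.84 ± 0.22.

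The divergent promoter of IRC24 and HYR1 gained TBP, TAF1 and Bdf1. IRC24 encodes a putative reductase and HYR1 a peroxidase that senses hydroperoxides. TAF1 reached 1.47, 1.31, 0.84 and 0.42 (1.01 ± 0.15, limma adjusted p = 8.21e-05), the highest TAF1 call among the members. TBP was at 1.01, 0.59, 0.76 and 0.63 (0.75 ± 0.15). Null lay between -0.38 and 0.16, below all of these arrays. Bdf1 was at 0.61 ± 0.15, with its lowest array at 0.14, and its call was lost without Bdf1 array D. RNA of HYR1 rose by 1.05 ± 0.15 and RNA of IRC24 by 0.90 ± 0.15.

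ERO1, the thiol oxidase gene of the endoplasmic reticulum, had the same 3 factors called higher. TAF1 at its promoter was 1.24, 1.17, 0.86 and 0.43 (0.92 ± 0.12), TBP 0.68 ± 0.12 and Bdf1 0.93, 0.56, 0.84 and 0.43 (0.69 ± 0.12). Its Null arrays ran from -0.17 to 0.00, and ERO1 RNA rose by 0.64 ± 0.16. TBP minus Null, TAF1 minus Null and Bdf1 minus Null at ERO1 stayed called with each array in turn left out.

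Other promoters led single factors. The highest TBP effect was at the promoter shared by GUD1, a guanine deaminase gene, and AIM6, with 0.85, 1.00, 0.71 and 0.80 (0.84 ± 0.21, limma adjusted p = 0.00871). GUD1 RNA rose by 1.16 ± 0.16 and AIM6 RNA by 0.59 ± 0.16. That TBP call was lost without TBP array B. The highest Bdf1 effect was in the region named for RMD8, ahead of KGD4, a gene of the mitochondrial 2-oxoglutarate dehydrogenase complex, at 0.80, 0.59, 0.89 and 0.99 (0.82 ± 0.08, adjusted p = 1.91e-06). KGD4 RNA rose by 1.03 ± 0.17, while RMD8 RNA was at 0.14 ± 0.17 (0.562).

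The promoter of ERV29, which encodes a cargo receptor of transport vesicles, gave a TAF1 effect of 0.74 ± 0.15 and a Bdf1 effect of 0.71 ± 0.15. Its Null arrays reached 0.80 and overlapped both, and the Bdf1 call was lost without Bdf1 array C. MSC1, with the second largest RNA rise among subtelomeric genes, shares its promoter region with RSC9, a chromatin remodeller subunit gene. TBP there was 0.60, 0.48, 0.40 and 0.42 (0.48 ± 0.06), above Null at -0.12 to 0.09, and TAF1, Mot1 and Bdf1 were called higher at 0.22 to 0.26.

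**Figure D3:**
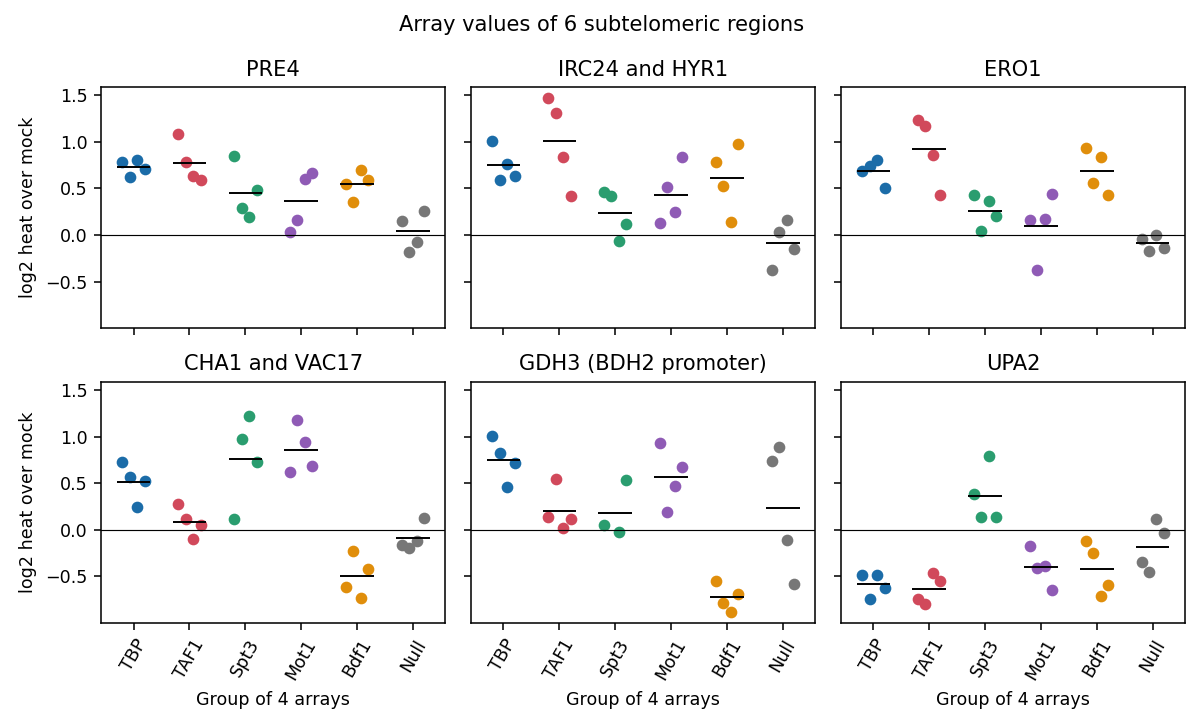
Array values (points, y axis log2 heat over mock with the fitted channel effect taken off) of 6 subtelomeric regions in the 5 factor groups and Null, with the mean of each group as a line. At PRE4, IRC24 and HYR1, and ERO1 the TBP and TAF1 arrays lie above the Null arrays; at the CHA1 and GDH3 regions Bdf1 lies below 0 while TBP and Mot1 lie above.

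Losses of binding were smaller and more scattered. The UPA2 promoter had the lowest TBP call, at -0.49, -0.74, -0.49 and -0.63 (-0.59 ± 0.11, limma adjusted p = 0.00117), below every Null array (-0.45 to 0.11). TAF1 there was -0.64 ± 0.11, Mot1 -0.40 ± 0.11 (lost without Mot1 array B, C or D), and UPA2 RNA fell by 1.26 on the log2 scale (SE 0.16). The region named for JEN1 lies ahead of URA1, which encodes the dihydroorotate dehydrogenase of pyrimidine synthesis. TBP was -0.69, -0.62, 0.05 and -0.46 there (-0.43 ± 0.10), so that 1 array lay within the Null values, and URA1 RNA was at -3.42 ± 0.21. The JEN1 call was lost without TBP array A (or array B).

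A divergent region of FLO9, a flocculin gene, and GDH3, a glutamate dehydrogenase gene, gave -0.32, -0.13, -1.47 and -0.31 for TBP (-0.56 ± 0.18, adjusted p = 0.0415). Array C stood far below the others, and the effect was -0.24 without it. The call was lost without array A, C or D. For TAF1 the lowest calls besides UPA2 were downstream of AQY1, an aquaporin gene (-0.66 ± 0.15), MAL13, a maltose activator gene (-0.54 ± 0.14), and PHR1, the photolyase gene (-0.54 ± 0.10). The AQY1 call was lost without TAF1 array B and the MAL13 call without TAF1 array A. These 3 regions lie between convergent genes and border no promoter.

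The region ahead of MPH3, an alpha-glucoside permease gene, was the lowest Bdf1 member to hold against Null throughout. Its Bdf1 values were -0.81, -0.44, -0.68 and -0.63 (-0.64 ± 0.10, limma adjusted p = 0.000247) and its Null values 0.02 to 0.07. Bdf1 minus Null was -0.68 ± 0.14 (adjusted p = 0.00562), and the call stood with each Bdf1 or Null array left out. MPH3 RNA was at -0.05 ± 0.18 (0.848). A region named for GEX2, a glutathione exchanger gene at the right end of chromosome XI, was at -0.70 ± 0.16 for Bdf1, a call lost without Bdf1 array C.

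Spt3 was called higher at 4 members. The region named for RMD6, ahead of the D-lactate dehydrogenase gene DLD3, gave 0.58, 0.92, 0.95 and 0.91 (0.84 ± 0.12, limma adjusted p = 0.000328) and overlapped Null, which reached 0.66. The promoter region of FET4, the low-affinity iron transporter gene, gave 0.42, 0.46, 0.37 and 0.49 (0.44 ± 0.10), below the highest Null array at 0.62, and was lost without Spt3 array B, C or E. The other 2 were PRE4 and CHA1. The lowest Spt3 calls were at a region named for FLO10 and lying ahead of NFT1 (-0.47 ± 0.12), YAL064W (-0.44 ± 0.12), FIT1 (-0.43 ± 0.10) and downstream of ADH4 (-0.41 ± 0.09). Each of these 4 calls was lost without Spt3 array B.

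The highest Mot1 call was at a region named for HXT11, a hexose transporter gene, and placed ahead of YOL155W-A. Mot1 there was 0.99, 1.20, 0.49 and 0.79 (0.87 ± 0.16, limma adjusted p = 0.000868), above Null at -0.41 to 0.44. A second region named for HXT11 was at 0.32 ± 0.07. The lowest Mot1 calls were at MNT2, a mannosyltransferase gene (-0.46 ± 0.14), a region of the hexokinase gene HXK1 (-0.45 ± 0.14) and EMA35 (-0.44 ± 0.15). These 3 overlapped Null, and each was lost when Mot1 array B or C was left out.

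At 6 regions factors were called in opposite directions, and Bdf1 was on one side each time, lower at 4 of them and higher at 2. These counts have no share over internal regions beside them. They are therefore not read as a trait of chromosome ends or of Bdf1 there. The promoter shared by CHA1, the catabolic serine and threonine deaminase gene, and VAC17, a vacuole inheritance gene, had 3 factors on the other side from Bdf1. Mot1 there was 0.62, 1.18, 0.94 and 0.68 (0.85 ± 0.13), Spt3 0.12, 0.97, 1.22 and 0.73 (0.76 ± 0.12) and TBP 0.73, 0.57, 0.24 and 0.52 (0.51 ± 0.12). Bdf1 was -0.62, -0.23, -0.73 and -0.42 (-0.50 ± 0.13) and TAF1 0.08 ± 0.12 (adjusted p = 0.689). Null lay at -0.20 to 0.13, below all Mot1 and TBP arrays and above all Bdf1 arrays. Mot1 minus Bdf1 was 1.35 ± 0.18 (limma adjusted p = 5.53e-05). CHA1 RNA rose by 2.31 ± 0.18, and both VAC17 probes fell, to -0.62 ± 0.16 and -1.16 ± 0.17.

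The region named for GDH3 lies ahead of BDH2, a dehydrogenase gene that itself starts beyond the limit. TBP there was 1.01, 0.82, 0.46 and 0.72 (0.75 ± 0.17) and Bdf1 -0.55, -0.79, -0.88 and -0.69 (-0.73 ± 0.17), a difference of 1.48 ± 0.24 (limma adjusted p = 0.00117). Null was scattered at 0.74, 0.89, -0.11 and -0.58, so neither factor lay apart from it. The TBP call was lost without TBP array A and the Bdf1 call without Bdf1 array C. BDH2 RNA rose by 2.63 ± 0.25. At FET4, Mot1 was 0.58 ± 0.11 and Bdf1 -0.40 ± 0.11, a difference of 0.98 ± 0.15 (0.000209), and FET4 RNA fell by 1.26 on the log2 scale (SE 0.16).

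HXK1, which encodes hexokinase 1, had the largest RNA rise of all subtelomeric genes, at 5.12 ± 0.15, and named 3 regions, all placed ahead of it. In one of them TBP was 0.56, 0.72, 0.47 and 0.39 (0.54 ± 0.09, limma adjusted p = 0.000366) and Bdf1 -0.39, -0.44, -0.46 and -0.80 (-0.52 ± 0.09), with Null at -0.34 to -0.07. The TBP arrays lay above every Null array and the Bdf1 arrays below every one. In the other 2 regions TBP was at -0.06 ± 0.07 and -0.16 ± 0.14 and was not called. The 2 splits with Bdf1 on the higher side were at AAD4, an aryl alcohol dehydrogenase gene (Mot1 -0.39 ± 0.10, Bdf1 0.32 ± 0.10), and at the YOR385W region (Spt3 -0.27 ± 0.07, Bdf1 0.37 ± 0.07).

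Regions of the same name often differed in this way. Of 66 genes that name 2 or more tested regions, 9 had a TBP call in at least 1 region and 0 had it in all. For Bdf1 21 genes had a call and 2 had it in all their regions, and for TAF1 26 and 6. The median range between regions of a name was 0.13 to 0.17 for each factor and 0.13 for Null. The counts have no share over internal genes beside them, so they too are not read as a trait of chromosome ends.

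Set against Null, fewer calls remained. TBP minus Null was called at 21 members, 5.37% beside 6.96% of all regions. TAF1 minus Null was called at 25, 6.39% beside 11.5%, with 18 higher and 7 lower, the latter 1.79% beside 4.07% of all regions. Bdf1 minus Null was called at 35, 8.95% beside 8.71%, with 17 higher and 18 lower. Mot1 minus Null was called at 13, 3.32% beside 6.96%, and Spt3 minus Null at 1, CHA1, 0.256% beside 0.954%. The shares were thus below the background for 4 factors and near it for Bdf1. The contrasts carry the spread of the 2 noisier Null arrays, and of the 56 Bdf1 losses 17 were also called against Null, of the 49 TAF1 losses 5 and of the 20 Spt3 losses 0.

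Some of the largest of these contrasts had Null arrays far from 0. For TAF1 the highest were IRC24 (1.10 ± 0.21), ERO1 (1.01 ± 0.17) and the promoter of COX14, an assembly factor gene of cytochrome oxidase (0.82 ± 0.18). The YNCB0001W region was among the lowest for TBP (-0.65 ± 0.19), TAF1 (-0.73 ± 0.19) and Mot1 (-0.66 ± 0.20), and its Null arrays stood at 0.74, 1.14, 0.17 and 0.22. The MCH2 region, for Mot1 at 0.81 ± 0.24, had Null arrays at -1.85 and -0.70. TBP minus Null was also lower at a region beyond PHO11 (-0.47 ± 0.13) and downstream of PAU24 (-0.45 ± 0.12). TAF1 minus Null was lower at OCA4 (-0.49 ± 0.13) and VTH1 (-0.47 ± 0.14), and Mot1 minus Null at YNCE0029C (-0.55 ± 0.14) and YOR389W (-0.48 ± 0.12). Bdf1 minus Null was higher at a region of AAD6 (0.94 ± 0.29), which has no value on Null array A and stood at -1.89 on Null array B, and lower at YCL074W (-0.95 ± 0.26). Apart from those at IRC24, ERO1 and COX14, each of these contrasts was lost when 1 of several arrays was left out.

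The repeated families of chromosome ends were described next. Their copies are close in sequence, so a probe may take up DNA of several copies and regions of a family are not independent. Regions were assigned to a family by the gene that names them. By the placement used here, such a region can border the promoter of another gene. Y' elements are helicase-coding repeats next to the telomere. The 20 tested Y' regions had a median Mot1 effect of 0.49, and 9 of them were called higher beside 8.57% of all regions. The medians of the single Mot1 arrays were 0.16, 0.44, 0.79 and 0.59. The highest Y' member, a region of YLL066C, was at 0.27, 0.65, 1.5 and 0.98 for Mot1 (0.85 ± 0.21, limma adjusted p = 0.00955), and one of YLL067C was at 0.77 ± 0.22.

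The control arrays also varied at Y' elements. The Null medians were 0.48, -0.07, 0.12 and 0.14, which overlaps the Mot1 range. The input medians were -0.19, 0.74, -0.60 and 0.49, a range wider than that of Mot1, although the input arrays hold no immunoprecipitated DNA. They split by channel order, with arrays A and C below 0 and arrays B and D, of the opposite order, above. The fitted channel effect had been taken off. None of the 20 regions was called for Mot1 minus Null, and the calls at YLL066C and YLL067C were lost without Mot1 array C (or array D). The part of channel order, copy number, hybridisation or strain in the Y' values was not tested. TBP was near 0 at Y' elements, with a median of 0.00, and Y' RNA was at a median of -0.03, with 0 of 26 probes higher and 1 lower.

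The seripauperin (PAU) genes encode cell wall mannoproteins known from anaerobic growth. Of their 18 tested regions Bdf1 was called lower at 10 and higher at 0, beside 7.81% of all regions called lower, with a median of -0.33. The Bdf1 array medians were -0.71, -0.12, -0.34 and -0.40, all below 0, and those of Null 0.22, -0.13, -0.01 and -0.02. For Bdf1 minus Null 2 of the 18 were called lower. Array B of Bdf1 lay within the Null values. The lowest was a region named for PAU10 but placed ahead of the Y' gene YRF1-1. Bdf1 there was at -1.28, -0.30, -0.28 and -0.64 (-0.63 ± 0.17), a call lost without Bdf1 array A or D. The TBP median was -0.18 and the TAF1 median -0.28. RNA of 23 PAU probes was at a median of 0.12, with PAU17 (0.54 ± 0.16), which lies farther in than 30 kb, higher and 0 lower.

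The COS genes encode membrane proteins of protein sorting. Of 15 tested COS regions TAF1 was called lower at 6 and Bdf1 at 5, with medians of -0.21 and -0.32, beside 8.67% and 7.81% of all regions called lower. Against Null, TAF1 was called lower at 0 of them and Bdf1 at 1. Both regions named for COS7, at the left end of chromosome IV and placed ahead of MPH2, were called lower for both factors. Bdf1 there was at -0.48 and -0.61 and TAF1 at -0.42 and -0.32. The Mot1 medians of the single arrays at COS regions were 0.17, 0.30, -0.18 and -0.12. RNA of COS12 fell by 0.87 on the log2 scale (SE 0.15), and that of COS2 (0.59 ± 0.16) and COS4 (0.53 ± 0.16) rose. With the PAU, COS and Y' regions set aside, Bdf1 was called lower at 41 of 338 subtelomeric regions, 12.1%, and its median was -0.07.

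**Figure D4:**
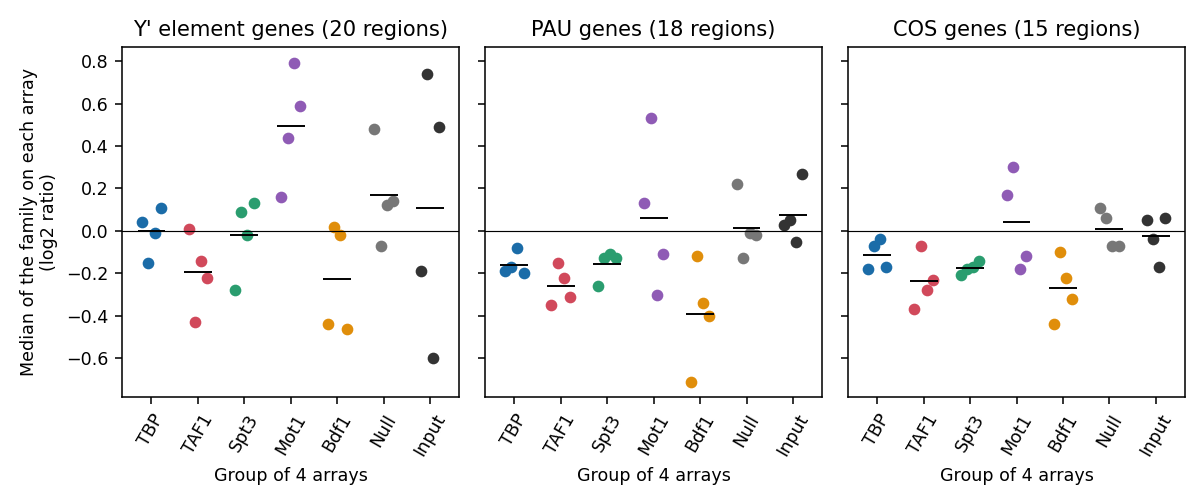
Median of the family's regions on each of the 4 arrays of a group (points; y axis, log2 heat over mock, and TAF1 over Spt3 strain for Input), with the mean of the arrays as a line. At Y' elements Mot1 lies above 0 on all arrays while the Input arrays run from -0.60 to 0.74; at PAU and COS regions TAF1 and Bdf1 lie below 0 on all arrays.

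Genes for sugar use had calls for Mot1, TAF1 or Bdf1 at some of their regions. Of 14 regions named for hexose transporter genes, 4 were called higher for Mot1, beside 8.57% of all regions. They were both regions named for HXT11 and both named for HXT12, the latter at 0.47 and 0.59. The HXT11 region with the larger effect is placed ahead of YOL155W-A. Whether the probes tell related transporter genes apart was not tested. RNA of 6 of 10 transporter genes rose (5 of the 8 that are subtelomeric), beside 18.2% of all probes, from HXT11 (0.64 ± 0.15) to HXT15 (1.01 ± 0.18), and that of HXT14, which is not subtelomeric, fell by 1.59 on the log2 scale (SE 0.20). Of 14 regions of maltose and isomaltose genes, Bdf1 was called lower at 5, with both MPH3 regions among them, and higher at 1, beside 7.81% and 8.42% of all regions. That one is the MAL31 region, where Bdf1 was at 0.43 and TAF1 at 0.37. TAF1 was called lower at 4 of the 14 and higher at 2, beside 8.67% and 12.2% of all regions. Against Null, TAF1 was called lower at 0 and higher at 2, and Bdf1 lower at 2 and higher at 1. RNA of IMA1 and MAL12, glucosidase genes, rose by 0.95 ± 0.16 each, and that of IMA5 fell by 1.02 on the log2 scale (SE 0.17).

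Iron uptake genes were lower in RNA for the siderophore transporter genes SIT1 (-1.85 ± 0.19), ARN2 (-1.49 ± 0.15) and ARN1 (-1.28 ± 0.19), while the cell wall mannoprotein genes FIT2 (1.25 ± 0.19) and FIT3 (0.74 ± 0.18), both farther in than 30 kb, rose. The other 7 of the 12 were not called. At their 11 subtelomeric regions TAF1 was called higher at 3, with FRE5 (0.34), ENB1 (0.29) and ARN2 (0.25), and lower at 1 region of FIT1 (-0.35), beside 12.2% and 8.67% of all regions. For TAF1 minus Null 0 of the 11 were called. That ARN2 region also had Bdf1 called higher at 0.37, beside the fall of ARN2 RNA, and the second ARN2 region had no call.

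Smaller lists gave few calls, to be read beside 7.81% of all regions called lower for Bdf1 and 18.2% of all probes called higher. Among 7 flocculin regions Bdf1 was called lower at 2, and RNA of FLO10 rose (0.56 ± 0.16), 1 of 5 flocculin genes. Of 6 aryl alcohol dehydrogenase (AAD) regions, 1 of the 2 named for AAD6 had the highest TBP effect (0.58 ± 0.14) and TAF1 effect (0.67 ± 0.14), while AAD4 alone of 6 rose in RNA (0.61 ± 0.16). The 8 thiamine and pyridoxine gene regions had 1 call, for Mot1 lower, and 3 of their 8 genes rose in RNA, with THI5 highest (0.80 ± 0.17). Of the HSP31 family, stress genes for glyoxalase-like proteins, 3 of 4 rose, with HSP31, itself not subtelomeric, at 2.36 ± 0.15 and the subtelomeric HSP33 at 1.08 ± 0.21. TAF1 was called lower at 1 of the family's 2 subtelomeric regions. The silent mating cassettes, with 3 regions and 3 RNA probes, had 1 Bdf1 call, lower, and 0 RNA calls (HMRA2 0.21 ± 0.17).

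Of 27 genes for proteins of telomeric chromatin 3 were called higher in RNA and 2 lower, beside 18.2% and 18.9% of all probes. The genes RAP1 (1.27 ± 0.18), the deacetylase gene HST1 (0.68 ± 0.18) and YKU70 (0.62 ± 0.19) rose. RIF1 (-0.87 ± 0.20) and the acetyltransferase gene SAS2 (-0.54 ± 0.16) fell. The silencing genes SIR2 (-0.42 ± 0.24, limma adjusted p = 0.211), SIR3 (-0.13 ± 0.15) and SIR4 (-0.57 ± 0.19, 0.0529) were not called.

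RNA of the subtelomeric genes themselves was called higher more often than lower with all 4 arrays in the fit, and this order was lost under several other settings. Of 355 probes 72 were called higher, 20.3% beside 18.2% of all 6772 probes tested. Lower were 38, 10.7% beside 18.9% of all probes and 21.1% of internal ones. The median was 0.13 against 0.01 for internal genes. Within 5 kb of the end gene 3.64% of 55 probes were higher and 7.27% lower, and at 20 to 30 kb 26.4% were higher and 12.8% lower. Of the 355, 31.0% were called in either direction with both heat arrays, 11.0% without heat array A (18 higher and 21 lower) and 10.2% without heat array B (17 and 19). Scaling the arrays to 1 spread gave 7 higher and 14 lower calls, and the replicate letter as a block gave 21 and 20.

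After HXK1, the largest rises were of MSC1, at 4.01 and 4.02 on the heat arrays and 0.06 and 0.63 on the mock arrays (4.01 ± 0.21, limma adjusted p = 5.79e-05), and YPS6, an aspartic protease gene, at 2.13 and 3.17 (2.65 ± 0.18). The oxidoreductase gene YMR315W (2.54 ± 0.16), CHA1 (2.31 ± 0.18), REE1 (2.00 ± 0.16), the glutathione transferase gene GTT1 (1.83 ± 0.17), SRY1 (1.66 ± 0.21), COX14 (1.32 ± 0.21) and GDH3 (1.28 ± 0.17) followed. On all of these the heat arrays lay above the mock arrays.

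The deepest falls were of the acid phosphatase genes PHO11 (-3.21 and -4.03 on the heat arrays, -3.62 ± 0.19) and PHO12 (-3.52 ± 0.20). PHO11 and PHO12 are near-identical copies, so their probes cannot be told apart. URA1 (-3.42 ± 0.21) and the ribosome assembly gene KRR1 (-3.41 ± 0.19) came next. SAM4 (-1.92 ± 0.17), YMR321C (-1.86 ± 0.19), the rRNA methyltransferase gene SPB1 (-1.76 ± 0.17), SRO77 (-1.72 ± 0.17) and IMD2, an IMP dehydrogenase gene (-1.68 ± 0.16), were lower as well. SAM4 and YMR321C are related in sequence as well.

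Gains of TBP, TAF1 and Bdf1 at chromosome ends went with higher RNA of the bordered genes. Losses of TAF1 and Bdf1 mostly did not go with lower RNA. The 28 regions with higher TBP bordered 38 genes with RNA measured, of which 21 (55.3%) were higher and 3 (7.89%) lower in RNA. Over all tested subtelomeric regions the shares of bordered genes were 22.0% and 11.2%, and at internal regions with higher TBP they were 45.4% and 5.12%. The 56 regions with lower Bdf1 bordered 44 such genes, of which 3 (6.82%) were lower and 8 (18.2%) higher. At internal regions with lower Bdf1 56.2% of bordered genes were lower in RNA, beside 21.7% over all internal regions.

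The 49 regions with lower TAF1 bordered 34 genes, of which 3 (8.82%) were lower in RNA, against 63.6% at internal regions with lower TAF1. For lower TBP it was 3 of 12 genes against 74.1%. For lower Mot1 it was 8 of 18 genes (44.4%) against 51.6%, so Mot1 losses did not show the gap of the other factors. These shares are descriptions, with no test of the difference, and neighbouring regions can border the same gene. The placement of regions, which sets the bordered genes, was chosen from TBP and RNA at internal regions, so the internal shares are not independent of it.

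**Figure D5:**
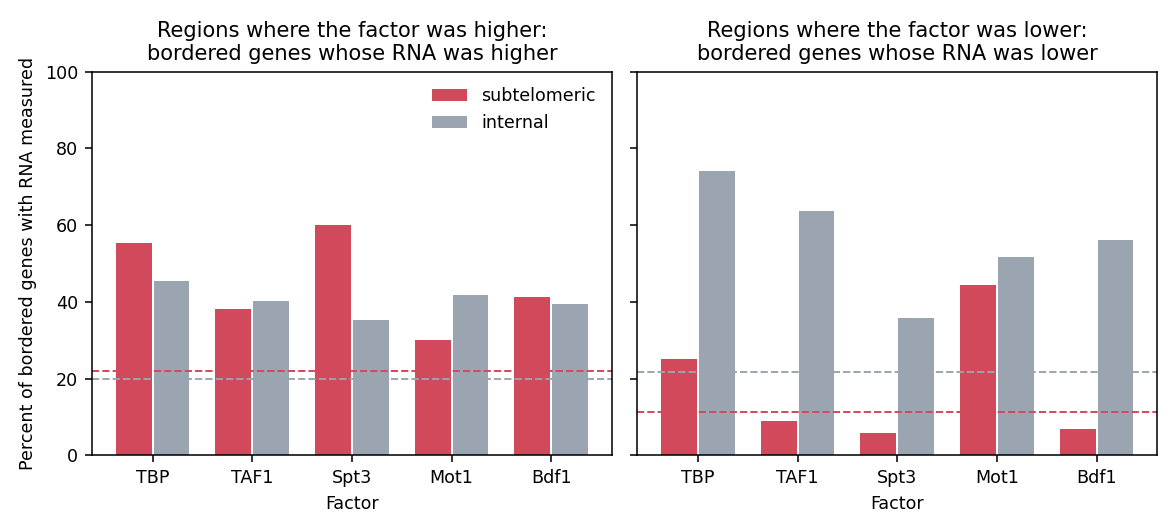
Percent of bordered genes (y axis) whose RNA was called higher, at regions where a factor was called higher (left), and lower, at regions where it was called lower (right), for subtelomeric and internal regions. Dashed lines give the same percent over all tested regions of each kind; for lower TAF1 the bars stand at 8.82 and 63.6, and for lower Bdf1 at 6.82 and 56.2.

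Across regions that border 1 promoter the same difference was seen in the effects. Over 184 subtelomeric regions, Spearman's rho of the factor effect with the RNA change was 0.20 for TBP, 0.146 for Bdf1, 0.065 for TAF1, -0.008 for Mot1 and -0.087 for Spt3. Over 2315 internal regions it was 0.465, 0.351, 0.442, 0.323 and 0.123 in the same order. The likely directions were chosen by setting TBP beside RNA at chaperone genes, so the sign of these values is not independent of that choice. The side on which regions were placed was chosen from TBP and RNA at internal regions between genes of the same strand. The internal values, and the gap to them, are thus not independent of that placement. The SDs of the RNA changes over these regions were 1.08 and 1.01. The quartiles over all tested probes lay closer together for subtelomeric genes (-0.13 and 0.45) than for internal ones (-0.43 and 0.43). The part of this narrower range in the rho values was not tested. At promoters whose RNA changed by at least 1 on the log2 scale the TBP values were 0.456 over 32 subtelomeric and 0.655 over 491 internal regions, and the TAF1 values 0.124 and 0.619. The Null effect had a rho of -0.218 with RNA at subtelomeric and -0.132 at internal regions, so a rho of that size was also reached without a tagged factor. These values are descriptions across regions that share the same arrays, and copies of a family share probes' targets.

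At the limit itself the last members inside were named for GDH3 (29.76 kb), ATP15 (29.80 kb), YNR066C and ERV29 (29.93 kb). Their Bdf1 effects were -0.73, 0.55, -0.33 and 0.71. The first regions outside were 2 of YFL051C and those of NIP1 and DOA1, with Bdf1 effects of -0.09, -0.03, -0.15 and 0.27.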

How the data were processed

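Per the labels, chromatin immunoprecipitates were hybridised in 2 colours and scanned on a GenePix 4000A with GenePix Pro 4.0. The authors deposited 1 log2 ratio of the 2 channels per region or probe. How they corrected background and normalized is not given in the sources used here. No intensity was used, so only the number of arrays sets the precision.

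Each ratio array was turned to heat over mock and centred on its median. The ratio direction is not stated. It was chosen from chaperone genes, reading the values as channel 1 over channel 2 for ChIP and as channel 2 over channel 1 for RNA. limma 3.58.1 (R 4.3.3) was fitted over all 28 ChIP arrays with a term for each group and a channel effect. Regions needed values on 3 or more arrays of every group, and this left 6392 of 7047. RNA was fitted with a heat and a channel effect over 4 arrays, for 6772 of 7056 probes. P-values were adjusted over all features by Benjamini-Hochberg, with 0.05 as the threshold. Array values in the text have the fitted channel effect taken off. Before that, arrays of 1 group and the same channel order correlated above 0. Arrays of opposite order correlated below 0 in every group but TBP and Mot1, down to -0.505 in Null. In TBP and Mot1 they fell on both sides of 0. The fits were tested on simulated data.

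Genes and distances come from the RefSeq R64 gene table of 6477 genes. Regions were placed to the right of their named gene. This was chosen after values were seen: at internal tandem regions TBP correlated with RNA of the named gene for Crick genes (rho 0.433, n = 1189) and of the right neighbour for Watson genes (0.499, n = 1125), and not in the crossed cases (-0.01 and -0.007).

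The members and gene lists were chosen with earlier results of these data known. Named regions are the 4 highest and 4 lowest calls of each factor, the 3 largest calls in each direction of each factor minus Null, the 3 with the smallest p in Null, the 10 highest and 10 lowest RNA calls, and of each gene list some of its extremes and calls. One result of that rule is not reported here. Other named regions and genes were chosen after their values were seen. Alternatives were another distance limit, no centring, equal spread, no channel effect, the replicate letter as a block, and each array left out.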

Additional observations from a re-analysis of the deposited data

Results flagged for a closer look

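In 57 groups of 4 arrays at named regions, 4 had an array that stood apart by Dixon's criterion for 4 values, which sets the gap to the nearest array over the range, where chance gives about 1 in 20. They were TBP at FLO9 (0.857) and GTR1 (0.849), low on array C in each case, and Spt3 at RMD6 (0.882) and FLO10 (0.925), low on array B in each case.

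Differences between factors called in opposite directions at the same region were tested within the limma fit, over 10 pairs of calls at 6 regions, with p-values adjusted over all regions. TBP minus Bdf1 was 1.48 ± 0.24 at GDH3, 1.06 ± 0.13 at HXK1 and 1.02 ± 0.18 at CHA1. Mot1 minus Bdf1 was 1.29 ± 0.25 at GDH3, 1.35 ± 0.18 at CHA1, 0.98 ± 0.15 at FET4 and -0.72 ± 0.15 at AAD4. Spt3 minus Bdf1 was 1.26 ± 0.18 at CHA1, 0.83 ± 0.15 at FET4 and -0.63 ± 0.10 at YOR385W. The limma adjusted p ranged from 5.53e-05 (Mot1 minus Bdf1 at CHA1) to 0.00393 (at AAD4). The pairs were chosen for their opposite calls, so these tests are a description.

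Regions outside the comparison also gave calls against Null. Of 869 tested regions with no gene name, TAF1 was called at 60, Mot1 at 48, Bdf1 at 39, TBP at 24 and Spt3 at 4, and Null itself at 0. Of 14 tested mitochondrial regions, 1, named for AI2, was called for Bdf1 minus Null, at 0.33.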

How the results depend on the processing

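The percent of tested members called was 21.2 for Bdf1, 20.7 for TAF1, 13.3 for Mot1, 11.3 for TBP, 6.14 for Spt3 and 0 for Null and the input arrays. Against Null it was 8.95, 6.39, 3.32, 5.37 and 0.256 in the same order of factors, and for RNA 31.0. Without centring, deposited array medians entered the effects. Mot1 then came to 90.8, Null to 91.6 and TBP minus Null to 51.9, while TBP, TAF1, Spt3, Bdf1 and the other contrasts with Null came to 0. With arrays scaled to equal spread, TAF1 came to 9.72, Spt3 to 9.46, Mot1 to 6.39, Bdf1 to 12.8, Null to 1.02, the input arrays to 1.02 and RNA to 5.92. Against Null, TAF1 came to 3.07, Spt3 to 0.767 and Bdf1 to 4.35 under that scaling. Without a channel effect Spt3 came to 4.09 and RNA, from the heat arrays alone, to 15.5. Within 15 kb, TBP came to 6.59, Spt3 minus Null to 0.549 and Mot1 minus Null to 2.20. The cause of these moves was not tested.

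The replicate letter as a block brought Mot1 to 3.84, Bdf1 to 12.0 and RNA to 11.5. The labels do not say that a letter marks a shared culture or day. Deviations of same-letter arrays of different groups correlated from -0.293 to 0.582 (median 0.254, 78 pairs) and those of different letters from -0.549 to 0.496 (median -0.116, 258 pairs). Not every same-letter pair was above 0.1, so the letters were not taken to pair the arrays, though the medians differ. These deviations still held the channel effect, and arrays of the same letter often shared a channel order. The check therefore cannot tell pairing apart from channel order. Leaving out 1 array at a time gave 7.93 to 19.7 for Bdf1, 7.42 to 15.6 for TAF1, 3.84 to 16.4 for Mot1, 5.88 to 8.44 for TBP, 0.512 to 5.88 for Spt3, 0 to 7.67 for Null and 10.2 to 28.5 for RNA. Against Null the ranges were, in the same order of factors, 3.58 to 10.2, 3.07 to 8.18, 1.79 to 6.39, 2.81 to 8.70 and 0 to 2.30. The shares moved by over 1.5 times without TBP array A, B or D, TAF1 array A, or Spt3 array B, C or E. They also did so without Mot1 array B, C or D, Bdf1 array A, C or D, or a Null array.

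The medians of subtelomeric minus internal regions kept their sign with each array left out for TBP (-0.079 to -0.044), TAF1 (-0.145 to -0.104), Spt3 (-0.140 to -0.103), Bdf1 (-0.107 to -0.076) and Null (-0.030 to -0.006), but not for Mot1 (-0.058 to 0.056). Within 15 kb they were -0.092 for TBP, -0.181 for TAF1, -0.144 for Bdf1 and 0.007 for Null, against -0.053, -0.135, -0.099 and -0.021. Some alternatives were added after the data were seen. Over regions that border 1 promoter the median was -0.092 for TBP and -0.182 for TAF1, and without the repeated families it was -0.063 for Bdf1. Without both noisier Null arrays the Null median was -0.050, and calls against Null came to 1.28 for Bdf1, 2.56 for TAF1, 1.02 for Mot1, 1.79 for TBP and 0 for Spt3. Of 65 calls at named regions 24 held under every alternative run for single regions.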
